A study of Mus musculus with 19 samples.

Results

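Lce1a1, Lce1b, Lce1c, Lce1e, Lce1f, Lce1g, Lce1h, Lce1i, Lce1j and Lce1l are late cornified envelope genes whose RNA was measured in mouse tongue epithelium of 4 genotype groups. These 10 genes, of 14 Lce1 genes and 24689 genes in the table, were chosen from earlier results of the same 19 mice, by their differences between the groups, so their differences are given here as a description with no p. All 10 passed the filter on low values, a level of 0.1 or more TPM (transcripts per 1000000, a level per transcript length) in 3 or more mice, as did 22745 genes in all. Lce1a2, Lce1d, Lce1k and Lce1m are the Lce1 genes outside the 10, and they passed it too.

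The study induced oncogenic transgenes in the basal cells of the tongue and sequenced polyA RNA of the whole tongue epithelium 15 days after induction. The mice, aged 8 to 16 weeks, carried an H2B-GFP reporter and received 3 injections of tamoxifen into the tongue and doxycycline in the chow. Control mice (N, n = 5) comprised 3 with Krt14-CreERT and LSL-rtTA, mouse 4 with LSL-rtTA and no Cre, and mouse 5 with Krt14-CreERT, tetON_E6-E7 and tetON_YAP1S127A but no rtTA. E mice (n = 5) were Krt14-CreERT/LSL-rtTA/tetON_E6-E7, where E6-E7 are papillomavirus oncogenes that inactivate p53 and the retinoblastoma protein. Y mice (n = 3) carried Krt14-CreERT, LSL-rtTA and tetON_YAP1S127A, a YAP1 that the Hippo kinases cannot restrain, and EY mice (n = 6) carried Krt14-CreERT and LSL-rtTA with both transgenes. Krt14 drives the Cre in basal cells, so the transgenes were switched on below the layers in which Lce1 genes are known to be transcribed. Reads counted per mouse lay between 8269674 and 11007304, with medians of 9637779 for N, 8848776 for E, 8679053 for Y and 9448942 for EY.

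The cornified envelope is the sheath of cross-linked protein that replaces the plasma membrane of a keratinocyte as it dies at the surface of a stratified epithelium. Late cornified envelope proteins are small, rich in cysteine, glycine and serine, made at the end of differentiation and cross-linked into that sheath by transglutaminases. Their genes lie together in the epidermal differentiation complex, beside those of loricrin, involucrin, the small proline-rich proteins and the filaggrin family; the LCE1 group is known from intact cornifying skin and the LCE3 group from injured or inflamed skin.

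Lce1b and Lce1i had the highest levels of the 10 in N. Lce1i was at 1421, 1028, 974.2, 1539 and 1879 TPM in N mice 1 to 5, and at 1970, 1493, 1490, 1771 and 1290 TPM in the 5 E mice. Y mice had 301.8, 554.7 and 435.7 TPM of Lce1i, and EY mice 7.95 to 22.2 TPM with a median of 17.6. The E mice overlapped the N mice, the Y mice lay below all of these, and the EY mice lay below every Y mouse. From N, the log2 fold change of Lce1i was -6.34 (standard error 0.25) in EY, -1.67 (0.30) in Y and 0.26 (0.26) in E. Lce1b, at 1477, 980.3, 1062, 1725 and 2014 TPM in the N mice, 304, 512.7 and 401.8 TPM in the Y mice and 8.77 to 28.9 TPM in the EY mice, had the largest EY difference of the 10, -6.43 (0.27).

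Lce1l, the lowest of the 10 in N, showed the same order of groups at lower levels. Its level was 740.6, 483.8, 456, 873 and 842.9 TPM in the N mice, and 1198, 865.3, 1019, 1165 and 607.8 TPM in the E mice. Y mice had 159.1, 254.6 and 268.2 TPM, and EY mice 3.77 to 18.5 TPM with a median of 9.14. E mice 1, 3 and 4 were above every N mouse in Lce1l, while the Y and EY ranges overlapped neither each other nor the N range. Lce1l had the largest E-minus-N value of the 10 (0.53, standard error 0.35) and log2 fold changes of -1.56 (0.40) in Y and -6.10 (0.33) in EY.

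Lce1h stood at the other end of the EY differences, with the smallest of the 10 (-5.76, standard error 0.28). Its level was 1097, 731.3, 778, 1282 and 1334 TPM in the N mice, 1230, 1295, 1077, 1162 and 1003 in the E mice, and 260.0, 341.6 and 299 in the Y mice. EY mice had from 11.2 to 37.3 TPM of Lce1h, with a median of 19.01. EY mice 1, 3 and 5 carried the higher Lce1h values (25.6, 37.3 and 24.9 TPM), and none of them approached the lowest Y mouse.

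**Figure D1:**
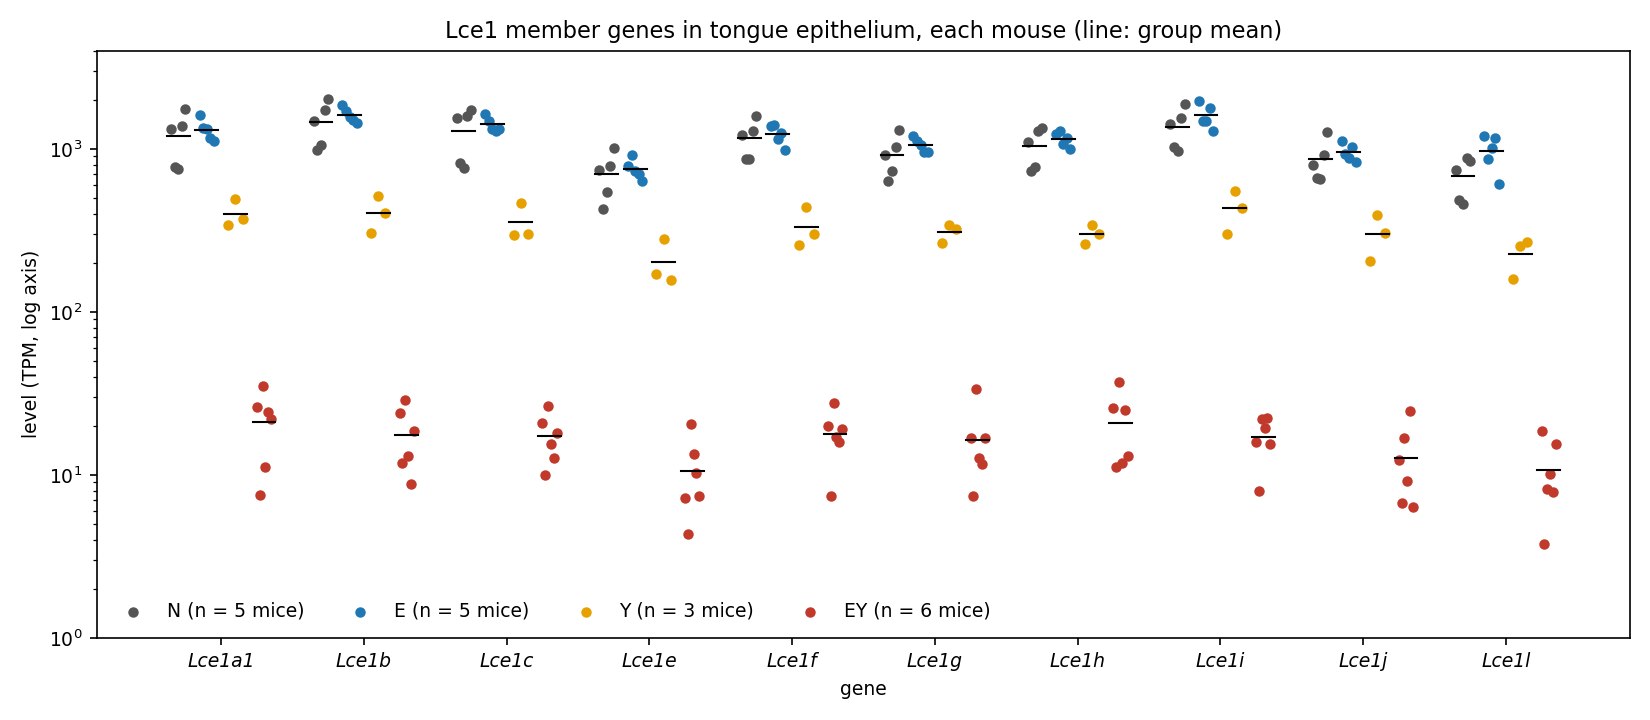
Level in TPM (log axis) of the 10 Lce1 member genes in each mouse of the groups N, E, Y and EY, with a line at each group mean. In all 10 genes the 6 EY mice sit below the 3 Y mice, which sit below the N mice; for Lce1b the EY mice lie between 8.77 and 28.9 TPM and the N mice between 980.3 and 2014.

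Summed over the 10 genes, the level was 11280, 7417, 7585, 12397 and 14746 TPM in the 5 N mice, which is 1.07% ± 0.317 (SD) of all TPM. The sum was 13969, 12538, 11624, 11983 and 10208 TPM in the E mice, and 2555, 4073 and 3164 TPM in the Y mice. EY mice had sums from 78.2 to 256 TPM with a median of 158, or 0.0162% ± 0.00591 of all TPM. The mean sum in N was 66.1 times that in EY and 3.27 times that in Y. N mice 2 and 3 were below their group mean in all 10 genes and N mouse 5 was the highest N mouse in 9, so the 10 genes ranked the control mice much alike. Because these are bulk samples, fewer cells of the cornifying kind and less Lce1 RNA in each such cell cannot be told apart.

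The low EY levels still rested on counted reads. The 10 genes together had 19869 to 44512 reads per N mouse, 5989 to 10728 per Y mouse and 235 to 646 per EY mouse. The lowest single count was 9 reads, for Lce1l in EY, and no member was at 0 in any mouse. Counts this small carry a wide counting error. The SD of log2 TPM within a group, taken as the median over the 10 genes, was 0.72 in EY, above the 0.43 of N, the 0.19 of E and the 0.39 of Y (all genes: 0.44, 0.42, 0.39 and 0.34 in the same order). The part of counting error in that spread was not tested.

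EY minus N asks what both transgenes together did to the epithelium. All 10 members were called lower, where called means that limma gave an adjusted p under 0.01 with a log2 fold change beyond 1 in size; 5.71% of the 22745 genes tested were called lower and 12.6% higher. Every EY mouse was below every N mouse in all 10 members, as in 6.49% of all genes tested. The members were chosen on these differences, so the counts add nothing to the choice. Their log2 fold changes ran from -6.43 in Lce1b to -5.76 in Lce1h, a span of under 1 log2 unit, with a median of -6.13 (all genes: 0.33) and standard errors of 0.25 to 0.33.

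TPM are shares, and the median gene in EY was above that in N. Median-of-ratios scaling, which sets the typical gene equal between mice, took the median of all genes from 0.33 to 0.01, the member median from -6.13 to -6.50, and the share of lower calls among all calls from 31.25% to 56.2%, with all 10 members called under either. The same scaling moved that share from 24.2% to 42.8% in Y minus N, from 46.5% to 69.7% in EY minus Y, from 38.95% to 61.1% in EY minus E and from 32.5% to 44.0% in Y minus E.

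Y minus N asks what active YAP did alone. Here 8 members were called lower, against 1.11% of all genes tested (3.47% were called higher), and Lce1a1 (-1.52, standard error 0.40) and Lce1l (-1.56, 0.40) were not. Every Y mouse was below every N mouse in all 10, as in 5.59% of all genes tested. The median log2 fold change was -1.72 (all genes: 0.13), and the 10 values ran from -1.82 to -1.52, with standard errors of 0.30 to 0.40, as wide as that span. How many members were called varied with the setting, from 2 to 10 over 27 alternatives, and Lce1j was called in 12 of them. The fewest, 2 at a median of -1.47, came with only N mice 1 to 3, the controls that carry both Cre and rtTA. That setting has fewer controls and leaves out N mice 4 and 5, which had the highest Lce1 sums of N (12397 and 14746 TPM).

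E minus N asks what E6-E7 did alone. None of the 10 was called by limma, where 1.2% of all genes tested were called in either direction. The 10 log2 fold changes lay between 0.11 in Lce1f and 0.53 in Lce1l, with a median of 0.20 (all genes: 0.07) that became 0.08 after scaling, 0.07 without N mouse 2 and 0.48 with only N mice 1 to 3. With 5 mice on each side and standard errors up to 0.35, differences of this size were not resolved.

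Other comparisons set the transgenic groups against each other. EY minus Y, which adds E6-E7 to active YAP, had all 10 members called lower (0.928% of all genes tested) with a median of -4.40, from -4.68 in Lce1j to -4.00 in Lce1h. Every EY mouse was below every Y mouse in all 10 members, as in 3.37% of all genes tested. In EY minus E, which adds active YAP to E6-E7, all 10 were called lower (4.99% of all genes tested) with a median of -6.35, and every EY mouse was below every E mouse (6.53% of all genes tested). In Y minus E, 9 members were called lower (0.805% of all genes tested), all but Lce1a1, with a median of -1.93; without Y mouse 1 or Y mouse 3 only 5 were, at medians of -1.78 and -1.89. These comparisons share mice, so they are not separate observations of the same difference.

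The interaction, EY minus E minus Y plus N, measures on the log2 scale how far EY departed from what E and Y add up to. All 10 members were called lower in it, against 0.167% of all genes tested (38 genes), with a median of -4.61 and values from -5.07 in Lce1l to -4.18 in Lce1h. Put in levels, adding those differences would have left Lce1b at 456 TPM, where the geometric mean of the EY mice was 16.1 TPM. For Lce1h the same figures were 338 and 18.6 TPM, and for Lce1l 319 and 9.44 TPM. At the median of the members, differences of 0.20 in E and -1.72 in Y stood beside one of -6.13 in EY.

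**Figure D2:**
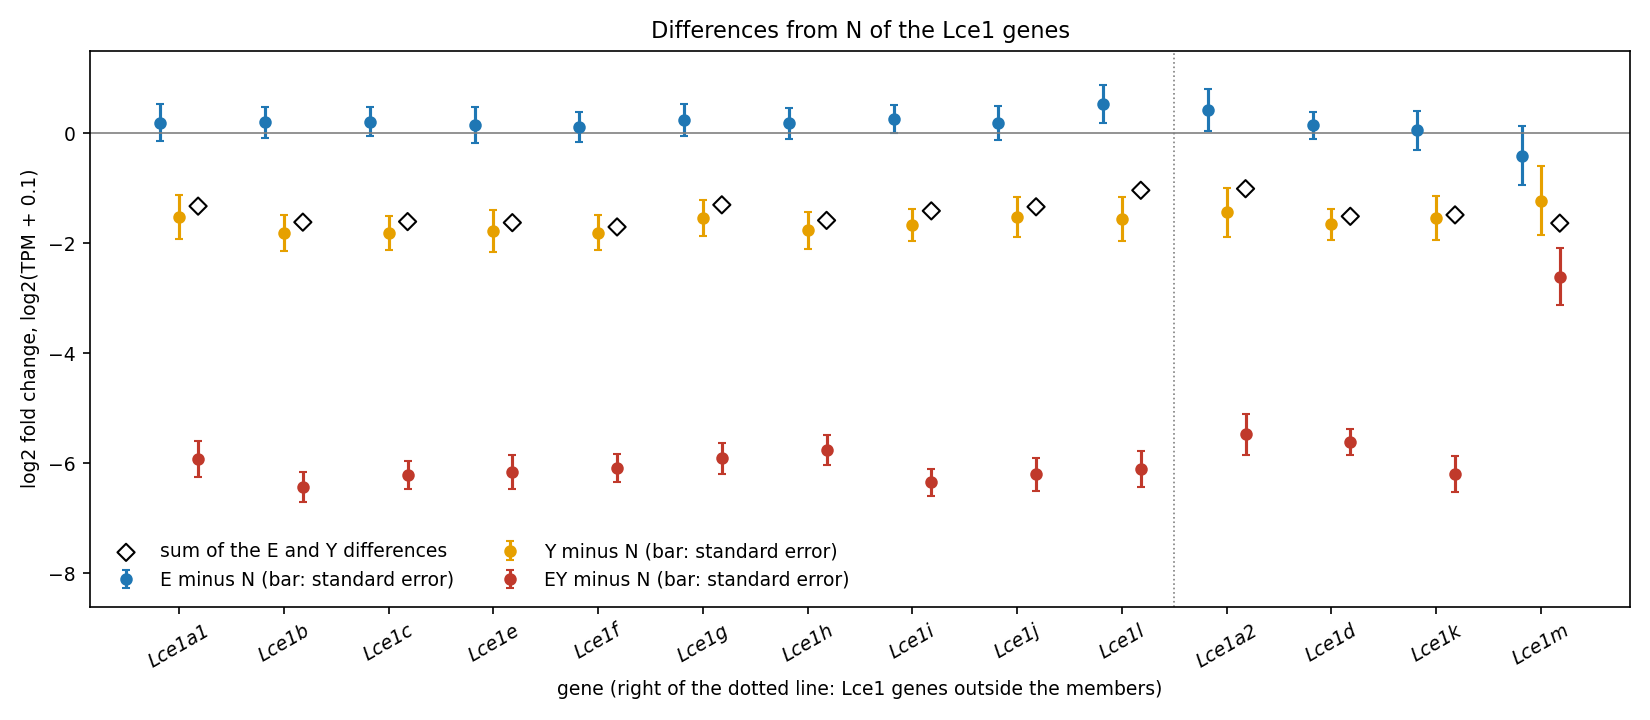
Log2 fold change from N, with standard error, of the 14 Lce1 genes in E, Y and EY mice, with E and Y differences added together as an open diamond. The EY values of the 10 members lie between -6.43 and -5.76, far below the diamonds, while Lce1m at -2.61 lies nearest to its own.

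The order of the members was much alike in N, E and Y. In N the order of mean log2 levels was Lce1b, Lce1i, Lce1c, Lce1f, Lce1a1, Lce1h, Lce1g, Lce1j, Lce1e and Lce1l, and only 2 of the 9 neighbouring pairs differed by more than the SD of their difference over mice (Lce1h over Lce1g, and Lce1j over Lce1e). The top gene exceeded the bottom gene by 1.10 log2 units in each of N, E and Y and by 0.99 in EY, always taken in that group's own order. In EY none of the 9 neighbouring pairs differed beyond its spread, so neighbours cannot be ordered there. The difference of 0.99 between the ends, Lce1a1 and Lce1e, had an SD over mice of 0.74. Those ends were picked by their rank in the same EY mice, so their gap does not show that they differ. Of the summed level, Lce1b made up 13.6% ± 0.409 (SD) in N mice, 13.4% ± 0.593 in E mice, 12.4% ± 0.433 in Y mice and 11.1% ± 3.32 in EY mice. All Y mice (at most 12.7%) lay below all N mice (at least 13.1%) in this share of Lce1b, and the EY mice ran from 5.38% to 15.1%. In every other member the Y and N shares overlapped, as in Lce1a1 (9.98% to 11.9% in N, 11.8% to 13.3% in Y). Unlike Lce1b, Lce1h had a higher mean share in EY (12.6% ± 3.00) than in N (9.85% ± 0.518), which is within the EY spread. Lce1e held a like share of the sum in all groups, with 6.54% for N, 6.26% for E, 6.16% for Y and 6.43% for EY.

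**Figure D3:**
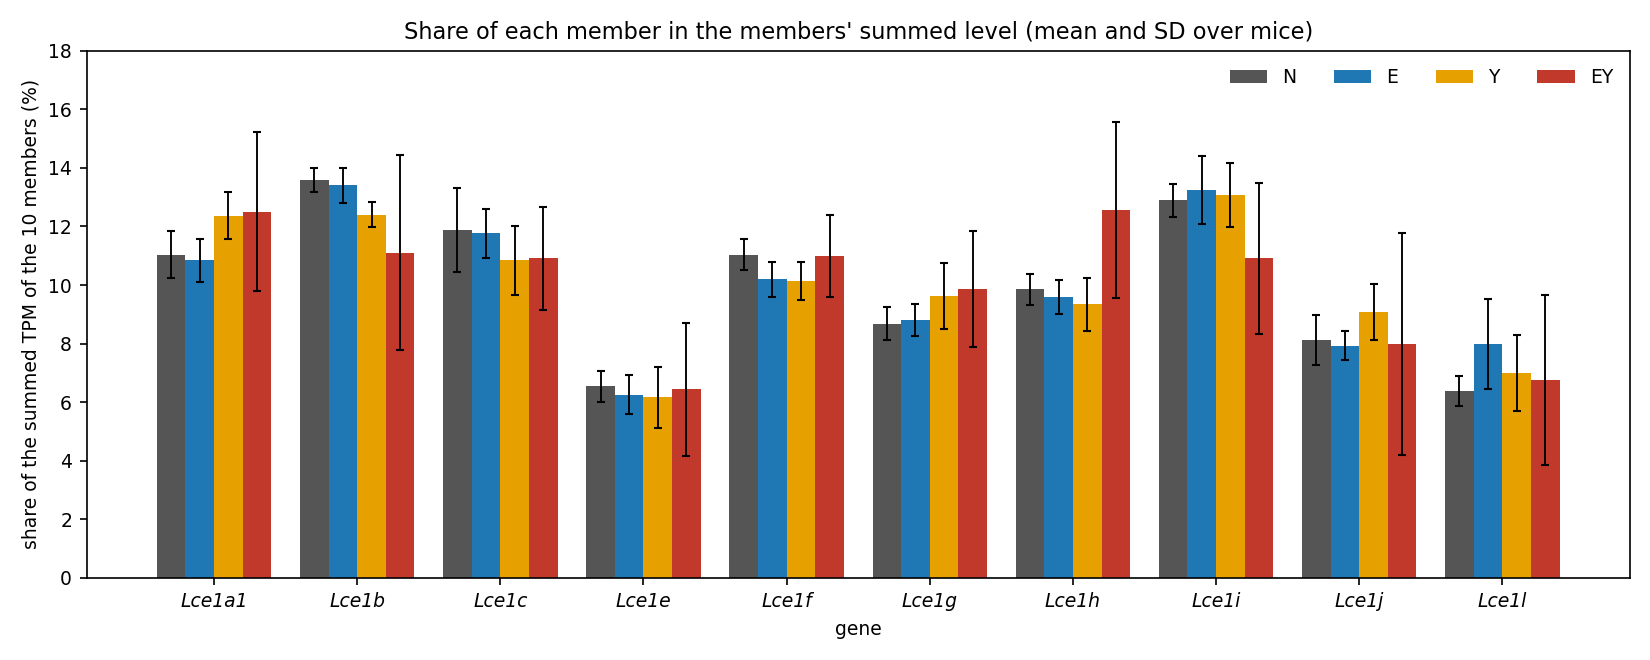
Share of each member in the summed TPM of the 10 Lce1 members, as mean and SD over the mice of N, E, Y and EY. Lce1e had 6.54% in N and 6.43% in EY, Lce1b went from 13.6% to 11.1%, and the EY bars have the widest SD.

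Within the groups, most members went up and down together across mice, most closely in N. After group means were taken out, Pearson's r between pairs of members ran from 0.25 (Lce1b with Lce1j) to 0.91 (Lce1f with Lce1g), with a median of 0.71 over 45 pairs and 19 mice. Within the 5 N mice r was at least 0.84, and within the 6 EY mice it ran from -0.07 to 0.97 with a median of 0.65. These mice share their group and each library's scaling, and the r values are a description. EY mouse 2 was lowest of its group in 8 members and EY mouse 3 highest in 7. Likewise Y mouse 1 was lowest in 9 members and Y mouse 2 highest in 9, and E mouse 5 was lowest in 8.

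Of the Lce1 genes outside the 10, Lce1a2, Lce1d and Lce1k resembled the members in level and difference. Mean TPM of Lce1d was 1461 ± 535 (SD) for N, 1526 ± 191 for E, 443 ± 86.5 for Y and 29.1 ± 8.53 for EY, with log2 fold changes of -5.61 (standard error 0.23) in EY and -1.65 (0.28) in Y. Lce1k had -6.19 (0.33) in EY, and Lce1a2 -5.47 (0.37). Lce1m departed from the rest of the family. It was at 15.5, 10.8, 34.8, 28.7 and 41.3 TPM in the N mice and at 1.03 to 7.10 TPM, median 4.57, in the EY mice, a log2 fold change of -2.61 (0.51). The interaction of Lce1m was -0.97 (0.80) and was not called, whereas those of Lce1a2, Lce1d and Lce1k were -4.46, -4.10 and -4.71.

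Position set Lce1m apart as well. In the order of the GENCODE annotation of mouse chromosome 3, the 10 members, Lce1a2, Lce1d and Lce1k lie in 1 run from Lce1a1 to Lce1l, and Lce1m lies beyond the 6 Lce3 genes and Crct1, next to Crnn. Inside the run of Lce1 genes, the pseudogene Gm4202 between Lce1d and Lce1e stood at 23.3 ± 7.47 TPM (SD) in N mice and 25.6 ± 3.85 in EY mice (log2 fold change 0.19, or -0.19 after scaling, not called). Gm38119, annotated between Lce1f and Lce1g, was at 46.9, 13.8, 19.04, 45.3 and 60.6 TPM in the N mice, and had 0 reads in all 6 EY mice. Kprp, for a keratinocyte proline-rich protein, sits between Lce1k and Lce1l and fell by 3.58 in EY (adjusted p = 1.29e-08, limma). Gm38201, next to Lce1l, had at most 6 reads in any N mouse and 0 in all 6 EY mice. The gene 2310050C09Rik on the far side of Lce1l fell by 4.54 (adjusted p = 1.59e-09). Lce6a, on the other flank beside Lce1a1, had at most 19 reads in any N mouse and was not called (log2 fold change -2.64, adjusted p = 0.0378), but was called without N mouse 2, which had 0 reads (-3.61, adjusted p = 0.00188). Crct1 beside Lce1m was not called (-0.48, adjusted p = 0.0811).

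**Figure D4:**
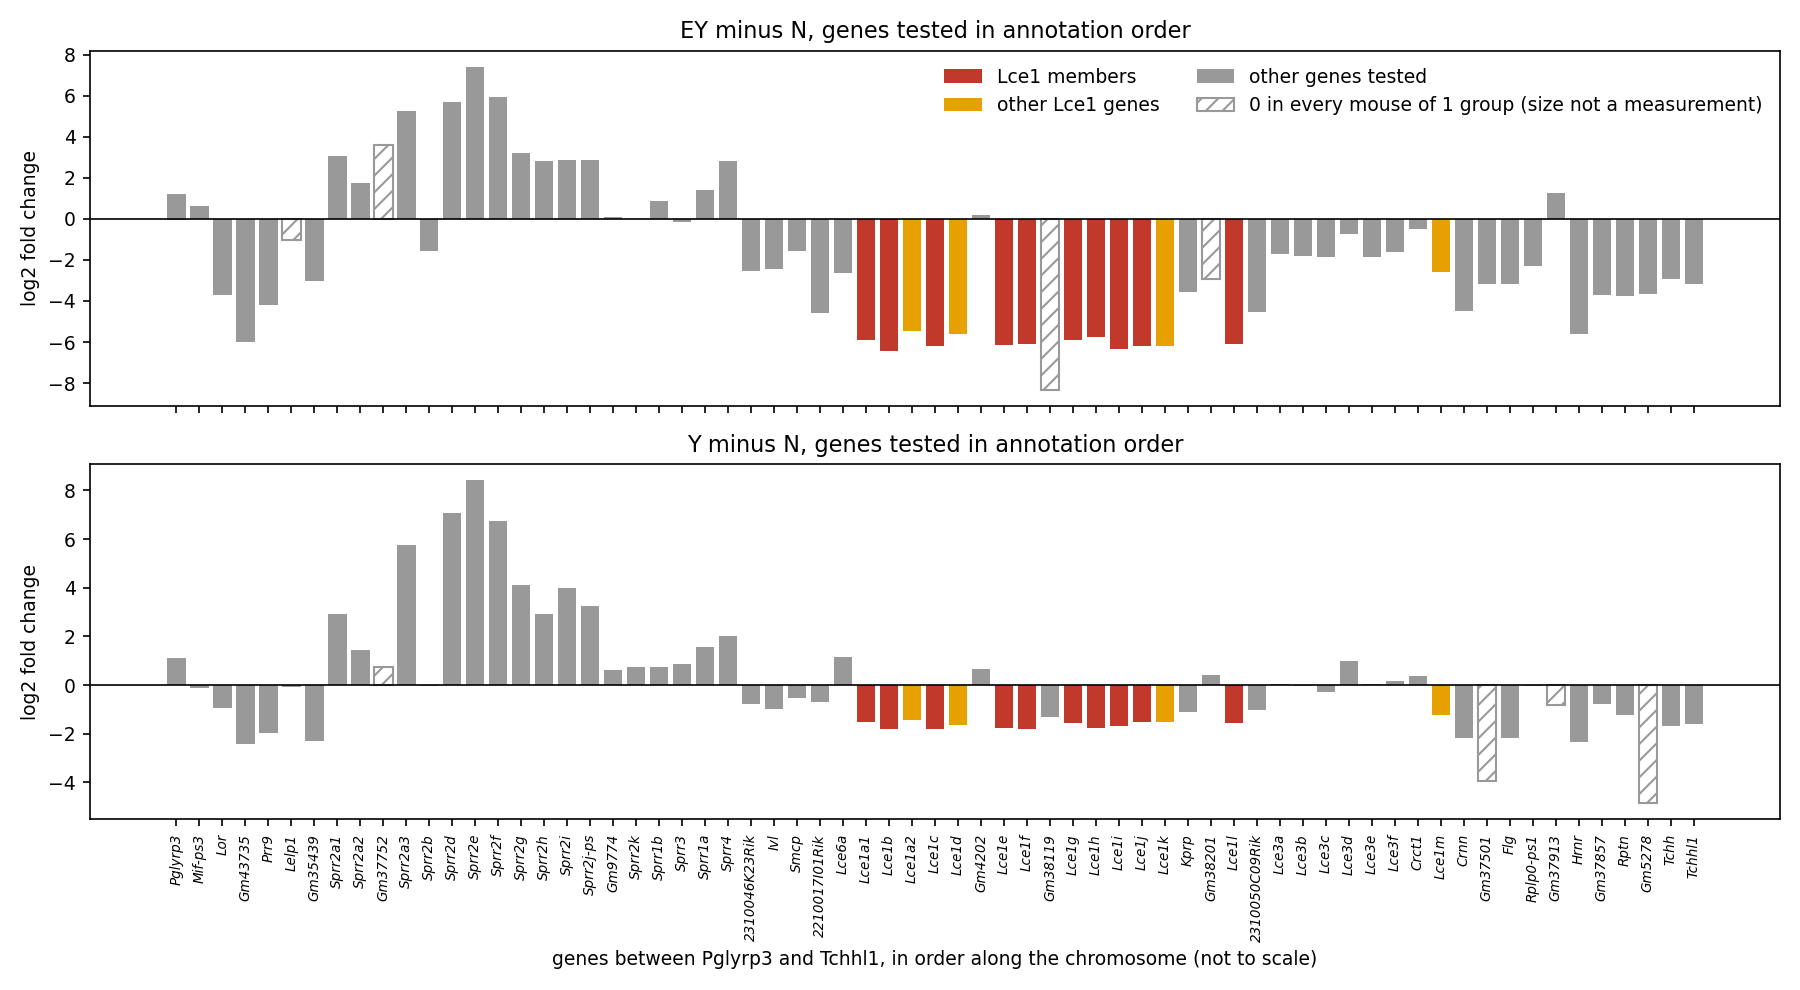
Log2 fold change in EY minus N (top) and Y minus N (bottom) of the genes tested between Pglyrp3 and Tchhl1, ordered along the chromosome and not to scale, with Lce1 genes in colour. The block of Lce1 genes from Lce1a1 to Lce1l lies between -6.43 and -5.47 in EY and the neighbouring Lce3 genes between -1.84 and -0.72; hatched bars had 0 TPM in every mouse of a compared group.

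Since the members moved together, their promoters were compared, using the RefSeq table of build GRCm38.p6. Of the 14 Lce1 genes 13 matched an entry, and of the 10 members 9; Lce1f had none. The 100 bases before the start are shown 5′ to 3′ on the strand of the gene for 5 members: Lce1a1 (chr3:92648308-92648407, minus strand), Lce1b (chr3:92656927-92657026, minus), Lce1c (chr3:92679147-92679246, plus), Lce1h (chr3:92765066-92765165, minus) and Lce1l (chr3:92851287-92851386, minus). They were picked to show genes with both, either or neither of 2 shared runs of 10 bases, in capitals, that were chosen after the sequences had been seen.
Lce1a1: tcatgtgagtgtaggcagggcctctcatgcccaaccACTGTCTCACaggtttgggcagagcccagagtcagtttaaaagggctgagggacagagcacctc
Lce1b: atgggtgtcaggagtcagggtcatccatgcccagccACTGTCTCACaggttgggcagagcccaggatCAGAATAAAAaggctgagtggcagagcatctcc
Lce1c: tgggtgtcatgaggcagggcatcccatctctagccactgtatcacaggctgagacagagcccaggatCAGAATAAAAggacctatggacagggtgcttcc
Lce1h: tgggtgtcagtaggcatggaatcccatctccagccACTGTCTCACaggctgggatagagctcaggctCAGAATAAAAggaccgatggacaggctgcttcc
Lce1l: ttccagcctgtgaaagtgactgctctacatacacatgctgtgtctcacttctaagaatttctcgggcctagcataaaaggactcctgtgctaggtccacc

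The run CAGAATAAAA began 33 to 35 bases before the start in 9 of the 13 Lce1 promoters, and 0.14% of 32851 promoters held it within 250 bases before the start, on either strand. The run ACTGTCTCAC began 53 to 65 bases before the start, also in 9 of the 13, and 0.131% of all promoters held it. Lce1l and Lce1m held neither run, and their EY log2 fold changes were -6.10 and -2.61.

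The letters of motifs of keratinocyte and YAP-related factors were searched in the same 250 bases on both strands. GGAATG, the letters of the TEAD motif through which YAP acts, occurred in the promoters of Lce1c, Lce1g, Lce1i and Lce1l (4 of 13 Lce1 promoters, 12.6% of all promoters). The letters TATAAA, known as the TATA motif of core promoters, occurred in Lce1d and Lce1m (12.4% of all promoters). The letters TGANTCA (AP-1, 6.75% of all promoters), AACNNGTT (Grainyhead-like, 3.64%), TTGCNNAA (C/EBP, 9.56%) and GGGCGG (Sp1/KLF GC box, 32.7%) were in none of the 13. Such letters describe the window and are not sites of binding.

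Transcripts of this family resemble each other, which bears on how reads are assigned. Aligned over their whole length, the GENCODE transcripts of the members were 75.7% to 94.1% identical in pairs, with a median of 83.5% over 45 pairs; Lce1h and Lce1i were the most alike. Windows of 100 bases found letter for letter in another gene made up between 0% of the transcript in Lce1l and 4.90% in Lce1e. The part of read assignment in the Lce1 differences was not tested.

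The genes most like the members, by Pearson's r over 19 mice with the mean log2 level of the 10, were 2310050C09Rik (0.986), Gm45609 (0.984), Gm38119 (0.983), Sytl1 (0.982) and Kprp (0.981), as a description. Of these, 2310050C09Rik, Gm38119 and Kprp are the neighbours of Lce1 genes described above. Sytl1, which encodes a synaptotagmin-like protein of vesicle traffic, had 126 ± 11.5 TPM (SD) in N mice and 25.6 ± 5.92 in EY mice, a log2 fold change of -2.32 (standard error 0.13), given without p because the choice used the same mice. With group means taken out, the closest genes were 2210017I01Rik (0.832), Prkag3 (0.83), C230013L11Rik (0.785), Gm45609 (0.768) and Tmem238l (0.76). Their EY log2 fold changes from N were -4.58, -0.08, -0.94, -4.09 and -1.93 in that order. They are the highest r picked from all genes tested outside the Lce1 family, so whether they follow the members was not tested. Some had few reads: in EY mice Prkag3 had 5 to 32, C230013L11Rik 0 to 23 and Gm45609 1 to 7. Prkag3 encodes a muscle subunit of the energy sensor AMPK.

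Lce3 genes were more abundant than the members in EY and differed less from N. The lists of genes here and below were also chosen with earlier results of these mice known. Their calls, counts and adjusted p thus describe these mice and are not independent tests. Lce3a, the most abundant in N, was at 3671, 2042, 3091, 2917 and 4348 TPM in the N mice, at 5083, 6237, 6857, 5328 and 6023 TPM in the E mice, at 3114, 4050 and 2542 TPM in the Y mice, and from 358 to 1409 TPM with a median of 1272 in the EY mice. The E mice thus lay above every N mouse, with no call, the Y mice overlapped the N mice, and the EY mice lay below all others. Of the 7 Lce3 and Lce6 genes, 5 were called lower in EY (5.71% of all genes tested), Lce3a, Lce3b, Lce3c, Lce3e and Lce3f, by -1.84 to -1.64, and none in Y (1.11%). With only N mice 1 to 3, Lce3e (adjusted p = 0.0131) and Lce3f (0.0653) were no longer called, and Lce3f lost its call without N mouse 1, 4 or 5 or EY mouse 2 or 6 (adjusted p from 0.0101 to 0.0163) and with only EY and N mice in the model (0.0166). In the interaction, with 0.167% of all genes tested called lower, none of the 7 was called, though all were negative (median -2.28) and Lce3c (-2.07, adjusted p = 0.0109), Lce3a (-2.66, adjusted p = 0.0161) and Lce3b (-2.28, adjusted p = 0.0187) missed narrowly.

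Of 17 other envelope genes of the complex that were tested, 9 were called lower in EY and 1 higher (all genes tested: 5.71% and 12.6%). Lor, for loricrin, the main protein of the epidermal envelope, was at 8136, 4403, 7173, 3158 and 5879 TPM in the N mice and from 221 to 1015 TPM, median 360.5, in the EY mice, with no overlap, and fell by 3.71 (adjusted p = 1.28e-06). Hrnr, for hornerin, fell by 5.59, nearest to the Lce1 members. The other called genes were Crnn (cornulin, -4.51), Rptn (repetin, -3.78), Tchhl1 (-3.19), Flg (filaggrin, -3.18), Tchh (trichohyalin, -2.95) and Ivl (involucrin, -2.45), beside Kprp; Tchhl1 lost its call with only N mice 1 to 3 (adjusted p = 0.0139). Pglyrp3, a peptidoglycan recognition protein, rose by 1.20, or by 0.82 with no call after scaling. Sprr1a, Sprr1b, Sprr3 and Sprr4, small proline-rich envelope genes, were not called in EY, with log2 fold changes of 1.40, 0.85, -0.17 and 2.83. The Sprr2 genes beside them were in none of the lists, so the counts of the 17 leave them out. Their EY log2 fold changes were positive in all but Sprr2b (-1.59) and Sprr2k (-0.01). The largest were those of Sprr2e (7.40, at 0 TPM in some N mice), Sprr2f (5.93), Sprr2d (5.70) and Sprr2a3 (5.27).

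Outside the complex, 10 of 13 genes of cross-linking and late differentiation were called lower in EY and 1 higher, again beside 5.71% and 12.6% of all genes tested. This list too was chosen with earlier results known. Krt10, a keratin of differentiating layers, was at 536.4, 1200.0, 443.8, 814 and 760.5 TPM in the N mice, 149.1, 149 and 116.5 in the Y mice, and 4.22 to 23.3 in the EY mice, and fell by 5.73 (adjusted p = 3.12e-09). Krt76, a palate and tongue keratin, fell by 5.49. Also called lower were the keratins Krt24 (-4.39) and Krt1 (-3.61), the cross-linking enzymes Tgm3 (-2.76) and Tgm5 (-1.41), Cdsn (corneodesmosin, -2.15), the protease Asprv1 (-1.71) and the oral keratins Krt4 (-1.61) and Krt13 (-1.75). Tgm1, the transglutaminase that starts the envelope at the membrane, was not called (0.12, or -0.25 after scaling), with 145 ± 21.9 TPM in N mice and 158 ± 27.3 in EY mice.

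Casp14, a protease of cornification, went the other way from the Lce1 genes. It was at 11.9, 10.5, 12.6, 17.4 and 13.6 TPM in the N mice, 19.6, 27.1, 38.4, 34.8 and 32.7 in the E mice, 100.2, 55.9 and 59.2 in the Y mice, and 50.5 to 85.8 in the EY mice. Casp14 rose by 2.28 in EY (adjusted p = 6.22e-08) and 2.40 in Y (adjusted p = 4.85e-06). In E, where every mouse was above every N mouse, it rose by 1.19 (adjusted p = 0.00183); the call ended after scaling (log2 fold change 1.08, adjusted p = 0.0111) and with only E and N mice in the model (1.19, adjusted p = 0.0134), though the difference stayed about as large.

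In Y minus N, 4 of the 17 envelope genes (Flg, Hrnr, Tchh and Crnn) and 3 of the 13 (Krt10, Krt76 and Krt24) were called lower (1.11% of all genes tested), by -2.50 to -1.51, beside the 8 Lce1 members. All 7 were also lower, but no longer called, in some alternatives. Hrnr and Tchh lost their calls without any 1 of the 3 Y mice, Flg without Y mouse 2 or 3, Crnn and Krt76 without Y mouse 1 or 2, Krt10 without Y mouse 3 and Krt24 without Y mouse 1 (log2 fold changes from -2.63 to -1.02, limma adjusted p from 0.012 to 0.0577). With only N mice 1 to 3, or without a single N mouse, calls of Hrnr, Tchh, Crnn, Krt76, Krt10 and Flg ended too (adjusted p up to 0.022), and those of Hrnr and Tchh also without single E or EY mice. Lor (-0.94, adjusted p = 0.227) and Kprp (-1.10, adjusted p = 0.0236) were not called in Y. Kprp was called lower by limma with only Y and N mice in the model (adjusted p = 0.00921) and without EY mouse 2 (0.00249), and by limma voom (0.00209).

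Of 19 tested transcription and chromatin factors of keratinocyte differentiation, 2 were called lower in EY and none higher (all genes tested: 5.71% and 12.6%), so the count says little about the list; after scaling 5 were lower. Maf, a factor known to promote epidermal differentiation, had mean TPM of 35.5 ± 9.12 for N, 30.6 ± 6.01 for E, 13.3 ± 2.60 for Y and 6.25 ± 2.94 for EY, and fell by 2.59 in EY (adjusted p = 9.29e-07) and by 1.39 in Y, the latter lost without any 1 of the 3 Y mice (adjusted p from 0.0154 to 0.0425) and without most single N or E mice. Rora, a nuclear receptor, fell by 2.19, or by 0.99 with no call at a pseudocount of 1 TPM. Hopx, which acts late in keratinocyte differentiation, rose by 1.19 in Y, a call lost after scaling (0.99) without any 1 of the 3 Y mice (adjusted p from 0.0161 to 0.0222) and without N mouse 1 or 4, and its EY value of 0.60 was not called. Klf4 and Trp63, regulators of the barrier and of stratified identity, were not called, with EY log2 fold changes of 0.11 and 0.02 that became -0.26 and -0.35 after scaling.

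**Figure D5:**
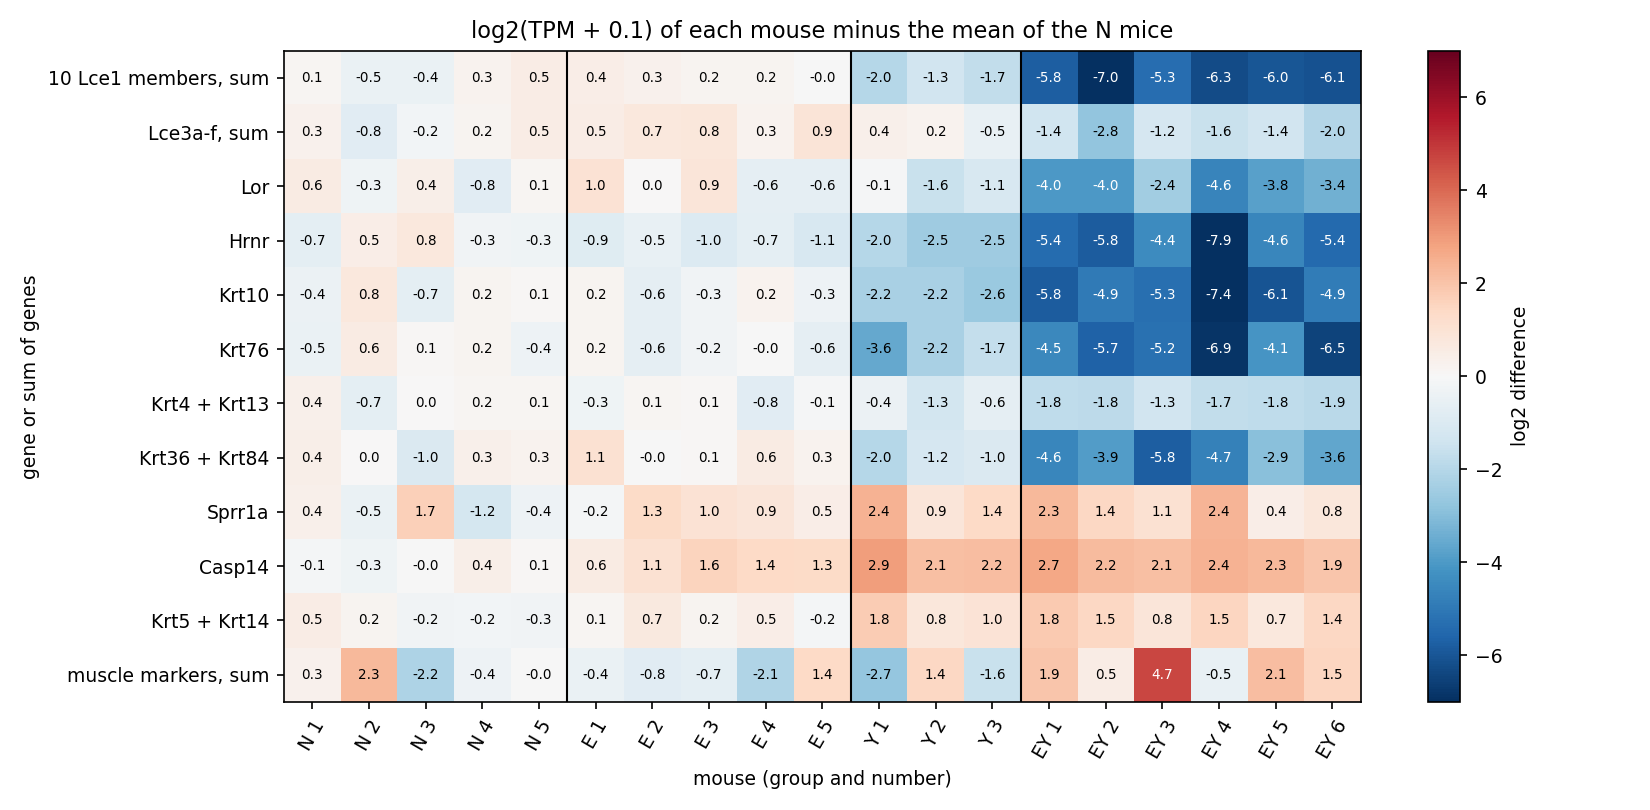
Log2(TPM + 0.1) of each mouse minus the mean of the 5 N mice, for the summed Lce1 members, other genes of cornification, keratins and summed muscle markers. The Lce1 row is the lowest for EY mouse 2 and the highest of the EY group for EY mouse 3, the mouse with the highest muscle sum (1285 TPM).

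Keratins of the suprabasal layers and of the filiform papillae were lower in EY, as were the Lce1 genes. This does not hold for all genes of differentiation, as Casp14, Tgm1 and the Sprr genes above show. The summed suprabasal keratins Krt4 and Krt13 were at 125566, 60455, 99727, 107737 and 104825 TPM in the N mice, 55524 to 105023 in the E mice, 40262 to 73577 in the Y mice, and from 26136 through 28715 to 38612 in the EY mice, and both genes were called lower in EY. The filiform papilla keratins Krt36 and Krt84 summed to 9963, 7701, 3781, 9554 and 9042 TPM in the N mice, 7474 to 16032 in the E mice, 1920, 3305 and 3779 in the Y mice, and from 139 through 409 to 989 in the EY mice. Both papilla keratins were called lower in EY, Krt36 by -4.35 and Krt84 by -3.83. EY mouse 3, highest of its group in the Lce1 sum, had the lowest papilla sum. EY mouse 2, lowest in the Lce1 sum, was above the papilla median. Whether the papilla keratins followed the Lce1 genes across the EY mice was not tested. Krt36 was the more abundant in every mouse, and none of these keratins was at 0.

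Basal markers differed among themselves where the Lce1 genes stood lower. The 5 summed to 14572, 12122, 9411, 9879 and 9231 TPM in the N mice, 30964, 17067 and 19595 in the Y mice, and from 15975 through 25045 to 32141 in the EY mice, with Krt14 the most abundant in all. In EY, Krt14 was called higher (1.43) and Krt15 lower (-1.27, lost with only N mice 1 to 3, adjusted p = 0.0175), and Krt5 (0.98), Itga6 (0.94) and Col17a1 (-0.73) were not called; after scaling Col17a1 was called lower as well (-1.11). The higher sums in EY thus came from Krt14 and Krt5. The part of basal, suprabasal and papilla cell numbers in the Lce1 difference was not tested.

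Markers of other tissues varied between mice. The 6 skeletal muscle markers, with Acta1 the most abundant in 18 of 19 mice, summed to 62.6, 242, 11.2, 39.5 and 49.6 TPM in the N mice and from 35.3 through 168 to 1285 in the EY mice, and none was called in EY. EY mouse 3, with the highest muscle sum, had the highest Lce1 sum of its group, and without it the member median in EY minus N was -6.27. Immune markers had median sums of 94.7 TPM for N, 183 for E, 495 for Y and 571 for EY. Of the 5, only S100a8 was called higher, in EY (4.75) and in Y (5.44), and it made up most of the difference. Over all genes tested, 12.6% were called higher in EY and 3.47% in Y, so 1 call of 5 says little about the list. Lyz2, the most abundant immune marker in N, had medians of 86.0 TPM in N mice (N mouse 1 at 556.6), 20.8 in Y mice and 115.5 in EY mice and was not called (Y log2 fold change -2.74, adjusted p = 0.0686). Fibroblast markers had median sums of 86.3 TPM for N, 82.5 for E, 34.5 for Y and 72.7 for EY. Dcn, the most abundant in N, was the only 1 of 6 called lower in EY (-2.36), beside 5.71% of all genes tested. The other 5 were not called and had log2 fold changes from 0.32 in Col1a1 to 1.08 in Pdgfra, or -0.049 to 0.805 after scaling. Endothelial sums stayed at or below 2.83 TPM, with Kdr at 0 in some N, E and Y mice, and the salivary genes Aqp5 and Amy1 at or below 5.09. Beyond the value without EY mouse 3, the part of these cells in the Lce1 differences was not tested.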

How the data were processed

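RNA of 19 mice was sequenced in pairs of reads, which the authors placed on GRCm39 (STAR 2.7.9, SAMtools 1.7) and counted per gene (HTSeq 0.13.5); how counts became the deposited TPM (tpm, transcripts per 1000000, each mouse summing to that number) is not stated. For gene set analysis the paper also made TPM with Kallisto on human transcripts, taking the highest value among the transcripts of a gene; nothing in the labels links these to the deposited mouse values. The members and the lists of other genes were chosen with earlier results of these data known; the genes most alike and the neighbours were taken by rule (highest Pearson's r, next in the annotation). Genes that reached 0.1 TPM in 3 or more mice were fitted as log2(TPM + 0.1) with limma 3.58.1 (R 4.3.3; lmFit, eBayes with trend), as 1 model of 4 group means over 19 mice, with Benjamini-Hochberg adjustment over 22745 genes. Called means adjusted p below 0.01 and absolute log2 fold change above 1. The test was also run on simulated data, and no result given here rests on that run. Whole reads were recovered from the steps of the TPM values for 24680 of 24680 genes above 0, within 0.01 read. Alternatives were another pseudocount (1 TPM), other filters, median-of-ratios scaling, a replicate block, fewer controls, only the groups compared, limma voom and leaving out each mouse. Flg2 and Satb1 failed the filter, and the symbols Loricrin, Muc19 and Prol1 were absent. No sequenced mouse was left out. Figures and descriptions used Python 3.11.15, numpy 2.4.6, pandas 2.3.3, matplotlib 3.10.9 and Biopython 1.88; promoters came from RefSeq and gene order from GENCODE, both of an older build than that of the reads.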

Additional observations from a re-analysis of the deposited data

Results flagged for a closer look

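A mouse far from the others of its group, by Dixon's gap test, was found in 16 of 195 groups of values examined, and in 2 of the 42 groups of Lce1 values; chance gives about 1 in 20. Among the Lce1 genes these were Lce1g in EY mouse 3 (33.42 TPM, next highest 16.77) and Lce1a2 in E mouse 1 (1663 TPM, next 1044).

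EY mouse 3 stood apart in 5 further values, all high: Krt13 (27609 TPM), Sytl1 (36.65 TPM), and the summed suprabasal (38612 TPM), skeletal muscle (1285 TPM) and endothelial markers (2.828 TPM). Single high values in other EY mice were Krt1 in mouse 6 (2.646 TPM) and Tchh in mouse 1 (343.6 TPM).

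In N, mouse 2 was high in Dcn (101 TPM) and in summed muscle markers (242.2 TPM), mouse 1 in S100a8 (49.59 TPM) and summed immune markers (619.5 TPM), and mouse 3 in summed salivary markers (5.094 TPM). In E, mouse 5 was high in summed muscle markers (135.6 TPM) and mouse 2 in summed salivary markers (1.441 TPM).

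Adding active YAP had a different effect with E6-E7 than without it, by limma's test of the interaction, on Kprp beside the Lce1 genes (-2.779, standard error 0.41, adjusted p = 0.00268) and on Krt24 (-2.725, standard error 0.39, adjusted p = 0.00208). Both genes were listed with earlier results of these mice known, and Kprp was also among the genes most like the members. Their p are therefore a description of these mice. With only N mice 1 to 3, neither passed (-2.778, adjusted p = 0.0136, and -2.590, adjusted p = 0.0125). Kprp also failed without Y mouse 1 (-2.619, adjusted p = 0.0156), and Krt24 with the replicate block (-2.724, adjusted p = 0.0116). The differences thus stayed about as large where the calls ended.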

How the results depend on the processing

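The median log2 fold change of the 10 Lce1 members moved by less than the SD between mice (0.45) in all 188 alternatives. In EY minus N it lay between -6.50 (median-of-ratios scaling) and -5.87 (N mice 1 to 3), and all 10 members were called in every alternative, as in EY minus Y, EY minus E and the interaction. In Y minus N 2 to 10 members were called, in Y minus E 5 to 10, and in E minus N 0.

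Counts of all genes called moved in 13 of 188 alternatives. Y minus N (1042 genes) gave 657 with N mice 1 to 3, 615 with only the groups compared and 639 to 1040 without 1 mouse (639 without Y mouse 3). With only the groups compared, E minus N (274) gave 150, EY minus Y (454) gave 211 and Y minus E (563) gave 223. Without 1 mouse, EY minus Y gave 200 to 497 (200, 254 and 263 without Y mouse 1, 2 and 3), Y minus E 266 to 581 (318 and 266 without Y mouse 2 and 3), and the interaction (40) 28 to 73 (73 without EY mouse 3); it gave 118 with limma voom. Apart from voom these alternatives use fewer samples; what moved the counts was not tested.

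With mouse number as a replicate block, the member median was -6.11 in EY minus N and -1.61 in Y minus N, with 10 and 5 members called. Pairing by number had no basis in the values: over 24 pairs of mice with the same number, r of the values after group means were taken out ran from -0.0426 to 0.0764, with none over 0.1.

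The alternatives were also followed for 62 log2 fold changes of genes outside the Lce1 family, Gm38119 not among them. Calls ended in 33 and began in 6 of 491 values with all mice, fewer controls or only the groups compared. Without 1 mouse, they ended in 67 and began in 5 of 1178. No call changed direction. Small uncalled EY values did change sign after scaling, as in Klf4, Trp63, Tgm1 and Gm4202 above. Of these 62, calls made in all 27 alternatives were 33 of 39 in EY minus N, 2 of 12 in Y minus N (Casp14 and S100a8) and 0 of 1 in E minus N, and in all 26 for 2 of 4 interactions. The EY values of the 10 members rest on 235 to 646 reads per mouse.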
